A study of Mus musculus with 8 samples.

Results

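The tissue kallikrein genes are a cluster of closely related mouse genes on chromosome 7, and 8 of them, Klk1, Klk1b5, Klk1b16, Klk1b21, Klk1b22, Klk1b24, Klk1b26 and Klk1b27, were measured in Hr6b knockout and wild type male germ cells. Of the 45037 probe sets on the array that are no controls, 13 carry the symbol, or an older name, of a gene among these 8. The genes were chosen by the difference between knockout and wild type spermatids on the same arrays, so their spermatid values are given as a description, with no test. Klk1 is represented by 4 probe sets, Klk1b5 and Klk1b26 by a pair each, and the other 5 genes by 1 each. HR6B, the product of Ube2b, is a ubiquitin-conjugating enzyme. RNA came from late spermatocytes, which are in meiotic prophase, and from round spermatids, the haploid cells that follow, isolated from testes of male Hr6b-/- and Hr6b+/+ mice of 4 to 5 weeks on the FVB background. The cells were enriched by sedimentation and a Percoll gradient, so other testis cells can remain in each fraction. All cells of the knockout mice lack the gene, including the somatic cells of the testis. The 4 groups are knockout and wild type spermatocytes and knockout and wild type spermatids, with 2 arrays each, 8 in total, and the number of mice behind an array is not given in the sources used here, so a p-value reflects the spread of these arrays, which may be technical.

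Kallikreins are secreted serine proteases that are made as inactive precursors. Klk1 encodes tissue kallikrein, which cuts kinins, peptides that widen blood vessels, out of kininogens. The Klk1b genes arose by duplication in the mouse lineage, and many of their products are abundant in the submandibular gland, where they process growth factors and prohormones. Klk1b21, Klk1b24 and Klk1b27 encode kallikreins described in Leydig cells, the steroid-making cells between the seminiferous tubules. Signal below stands for the linear value of the deposited log2 expression, and a log2 difference is knockout minus wild type unless another pair is named. On the array, 33.2% to 35.4% of the probe sets reached a signal of 100, the level the study used to set aside weakly expressed genes. The arrays of a group had an r of 0.995 to 0.997 over probe sets, which do not count as replicates. Ube2b, the targeted gene, averaged 1006 against 4606 in knockout and wild type spermatids and 828 against 3102 in the spermatocytes, on its brightest probe set. Round spermatid markers summed to 118600 to 140600 on the spermatid arrays, to 20710 to 29120 on the knockout spermatocyte arrays and to 4707 to 7564 on the wild type spermatocyte arrays. In spermatocytes most of that sum came from Prm1, Prm2, Tnp1 and Tnp2, and these 4 were higher in the knockout by limma's test. The other 4 markers, Acrv1, Catsper3, Izumo1 and Spaca1, were not called, with log2 differences of 0.34 to 0.87.

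The sequence just before the start of each gene is shown first, for the 3 genes with the largest log2 differences in spermatids (Klk1, Klk1b5 and Klk1b16) and the 2 with the smallest (Klk1b21 and Klk1b24). They are the 250 bases before the annotated start, 5′ to 3′ on the plus strand of GRCm38.p6, from RefSeq, which held all 8 genes. Capitals mark the letters TTTAAA, searched on both strands.
Klk1 chr7:44225110-44225359: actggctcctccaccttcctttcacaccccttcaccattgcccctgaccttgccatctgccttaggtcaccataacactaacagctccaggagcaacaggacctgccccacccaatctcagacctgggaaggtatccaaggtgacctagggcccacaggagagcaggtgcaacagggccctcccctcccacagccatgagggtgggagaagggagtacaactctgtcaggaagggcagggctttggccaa
Klk1b5 chr7:44216224-44216473: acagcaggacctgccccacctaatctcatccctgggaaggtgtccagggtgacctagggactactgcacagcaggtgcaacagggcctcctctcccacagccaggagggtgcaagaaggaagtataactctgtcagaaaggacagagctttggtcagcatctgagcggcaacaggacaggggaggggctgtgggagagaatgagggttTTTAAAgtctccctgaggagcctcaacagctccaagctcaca
Klk1b16 chr7:44137040-44137289: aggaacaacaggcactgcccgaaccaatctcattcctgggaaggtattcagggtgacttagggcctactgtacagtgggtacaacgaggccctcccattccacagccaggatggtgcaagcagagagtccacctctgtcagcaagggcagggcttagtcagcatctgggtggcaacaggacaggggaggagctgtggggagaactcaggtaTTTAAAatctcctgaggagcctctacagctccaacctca
Klk1b21 chr7:44102042-44102291: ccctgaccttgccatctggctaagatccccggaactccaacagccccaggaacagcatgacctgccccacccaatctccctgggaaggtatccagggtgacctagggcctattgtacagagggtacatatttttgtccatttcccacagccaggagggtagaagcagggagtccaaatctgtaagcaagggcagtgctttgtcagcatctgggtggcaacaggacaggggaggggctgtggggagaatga
Klk1b24 chr7:44187986-44188235: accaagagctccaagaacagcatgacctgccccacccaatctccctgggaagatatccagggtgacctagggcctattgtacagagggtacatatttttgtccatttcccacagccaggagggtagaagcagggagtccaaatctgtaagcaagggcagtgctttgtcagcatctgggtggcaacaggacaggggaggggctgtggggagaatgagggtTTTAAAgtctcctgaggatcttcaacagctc

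The letters TTTAAA were found in this window in 6 of the 8 genes, against 12.1% of 32851 promoters of the same length, and 12 of the 14 protein-coding genes of the Klk1 subfamily held them. They begin 42 bases before the annotated start in Klk1b5, 39 in Klk1b16 and 31 in Klk1b24. They are not in these 250 bases of Klk1 and Klk1b21, and with the first bases of the gene added (a window of 300 bases) they are missing from Klk1 alone. The Klk1 window ends at ctttggccaa, letters that resemble ctttggtcag in Klk1b5, where TTTAAA comes well after them. The annotated starts thus differ in place, and whether Klk1 holds TTTAAA beyond its windows was not tested. TATAAA, the common form of the TATA box, was in none of the 8 and in 12.4% of all promoters, and TGACGTCA, the full cAMP response element, was in none and in 1.55% of all. AGGTCA, the core letters of many nuclear receptor sites, was in 6 of the 8 and in 14% of all, and was not in the windows of Klk1b16 and Klk1b26. Across the 28 pairs of genes the windows were 75.7% to 97.7% identical, with a median of 81.9%, over 158 to 252 aligned columns. Klk1b21 and Klk1b24 were the most alike at 97.7%, Klk1 and Klk1b5 were 84.8% identical, and Klk1 and Klk1b24 were the least alike at 75.7%. A match of letters is a description, not a binding site.

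In spermatids, the largest differences between knockout and wild type, from 3.14-fold to 5.07-fold, were on probe sets of Klk1, Klk1b5 and Klk1b16. Another pair of Klk1 probe sets gave only 1.43-fold and 1.22-fold, and Klk1b21 and Klk1b24 hardly differed. On 9 of the 13 probe sets both knockout arrays lay above both wild type arrays, on none did they lie below, and on 4 they overlapped. Over all probe sets, 28.1% had both knockout spermatid arrays above both wild type arrays, and by limma's test, at an adjusted p of 0.05, 4.83% were higher and 9.63% lower. These shares are given as background only, because the same contrast chose the genes. The median log2 difference over the 13 probe sets was 0.56, against 0.02 over all probe sets. In RNA from isolated cells, a change in the share of the cells that express a gene and a change in RNA per cell cannot be told apart.

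**Figure D1:**
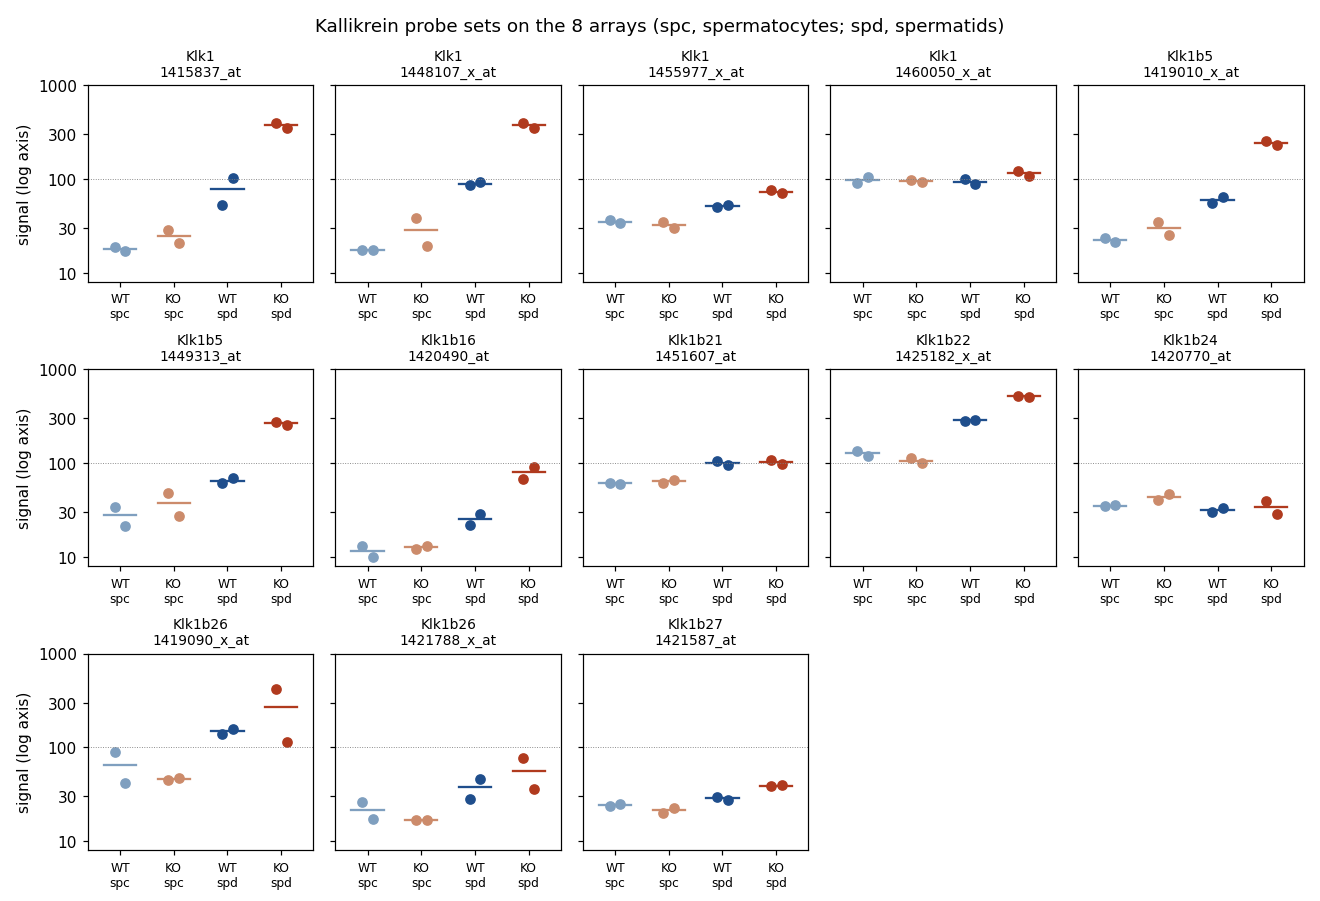
Signal (log axis) of each of the 13 kallikrein probe sets on the 8 arrays, with points for arrays, a short line for the group mean (n = 2) and a dotted line at a signal of 100; WT is wild type, KO is Hr6b knockout, spc spermatocytes and spd spermatids. The knockout spermatids stand above the other groups on the first pair of Klk1 panels and on the Klk1b5 and Klk1b16 panels, the groups lie close together for Klk1b24, and the knockout spermatid arrays are far apart for Klk1b26.

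Klk1, tissue kallikrein itself, was measured by 4 probe sets that fell into 2 kinds. On 1415837_at the signals were 398 and 350 in knockout spermatids and 52.8 and 103 in wild type spermatids. On 1448107_x_at they were 399 and 352 against 85.8 and 91.6. Both knockout arrays were thus well above both wild type arrays on each, with mean signals of 374 ± 33.7 against 77.9 ± 35.5 and of 376 ± 33.2 against 88.7 ± 4.10 (SD, n = 2). The log2 differences were 2.34 (standard error 0.27) and 2.08 (standard error 0.25), or 5.07-fold and 4.23-fold, and the pair of probe sets correlated at r = 0.987 over the 8 arrays, which hold 4 groups. The other pair of Klk1 probe sets gave small differences. On 1455977_x_at the signals were 76.0 and 70.0 in knockout and 49.7 and 52.2 in wild type spermatids, a log2 difference of 0.52 (standard error 0.12). On 1460050_x_at they were 121 and 108 against 99.0 and 88.1, a log2 difference of 0.29 (standard error 0.13). The arrays did not overlap on these either, but the sizes, 1.43-fold and 1.22-fold, were far from those of the first pair. The platform annotation names Klk1 alone for all 4. It ties the first pair to the same sequence record, and each of the other pair to a record of its own.

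Klk1b5, which lies next to Klk1 at the end of the cluster, gave the same size on its pair of probe sets. On 1419010_x_at the signals were 251 and 231 in knockout and 55.4 and 64.2 in wild type spermatids. On 1449313_at they were 277 and 253 against 61.5 and 68.6. The groups were far apart on each, and the means of 241 ± 14.0 against 59.8 ± 6.26 and of 265 ± 17.0 against 65.1 ± 5.03 give log2 differences of 2.01 (standard error 0.16) and 2.03 (standard error 0.26). Over the 8 arrays the pair correlated at r = 0.992, and the annotation ties both to the same sequence record. Klk1b16, which encodes gamma-renin, a kallikrein of the submandibular gland, had signals of 67.7 and 91.0 in knockout and 21.8 and 28.8 in wild type spermatids. Its arrays did not overlap, with a log2 difference of 1.65 (standard error 0.19), but it stayed under a signal of 100 in every group.

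Intermediate differences came from Klk1b22 and Klk1b27. Klk1b22, whose product binds epidermal growth factor, shares its probe set 1425182_x_at with Klk1b9, so that signal cannot be assigned to either gene. It read 519 and 510 in knockout spermatids and 281 and 288 in wild type spermatids. The replicates were close and the groups well apart, at 515 ± 6.02 against 285 ± 4.84, a log2 difference of 0.85 (standard error 0.12). Klk1b27 read 38.5 and 39.1 in knockout and 29.5 and 27.3 in wild type spermatids, a log2 difference of 0.45 (standard error 0.12). These signals did not overlap but are far under 100.

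Klk1b26, whose product is another binding protein of epidermal growth factor (Egfbp2), gave a difference that rests on 1 array. On 1419090_x_at the knockout spermatid arrays read 421 and 113, on either side of the wild type readings of 139 and 157. On 1421788_x_at, annotated under the older name Egfbp2, they read 76.3 and 35.5, and the wild type arrays 28.3 and 46.0. Replicate 1 of the knockout spermatids was the high one on both probe sets, which correlated at r = 0.974 over the 8 arrays. The log2 differences were 0.56 (standard error 0.51) and 0.53 (standard error 0.34). Without that array they were -0.39 and -0.03, and without replicate 2 of the knockout spermatids 1.51 and 1.08. On the probe sets of Klk1 and Klk1b5 the same array exceeded its replicate by far less.

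Klk1b21 and Klk1b24 showed no difference beyond the spread of their arrays in spermatids. Klk1b21 read 108 and 98.0 in knockout and 105 and 96.1 in wild type spermatids, and Klk1b24 read 39.8 and 28.8 against 30.2 and 33.5. The groups overlapped for each, with log2 differences of 0.03 (standard error 0.12) and 0.09 (standard error 0.16). Under cyclic loess normalization that of Klk1b24 was -0.03, and without replicate 1 of the knockout spermatids they were -0.04 and -0.14, so neither has a settled direction. Along the chromosome Klk1b26, Klk1b27 and Klk1b21 precede Klk1b22 and Klk1b16, and Klk1b24 stands between Klk1b16 and Klk1b5, so the genes with the largest differences are not an unbroken stretch.

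**Figure D2:**
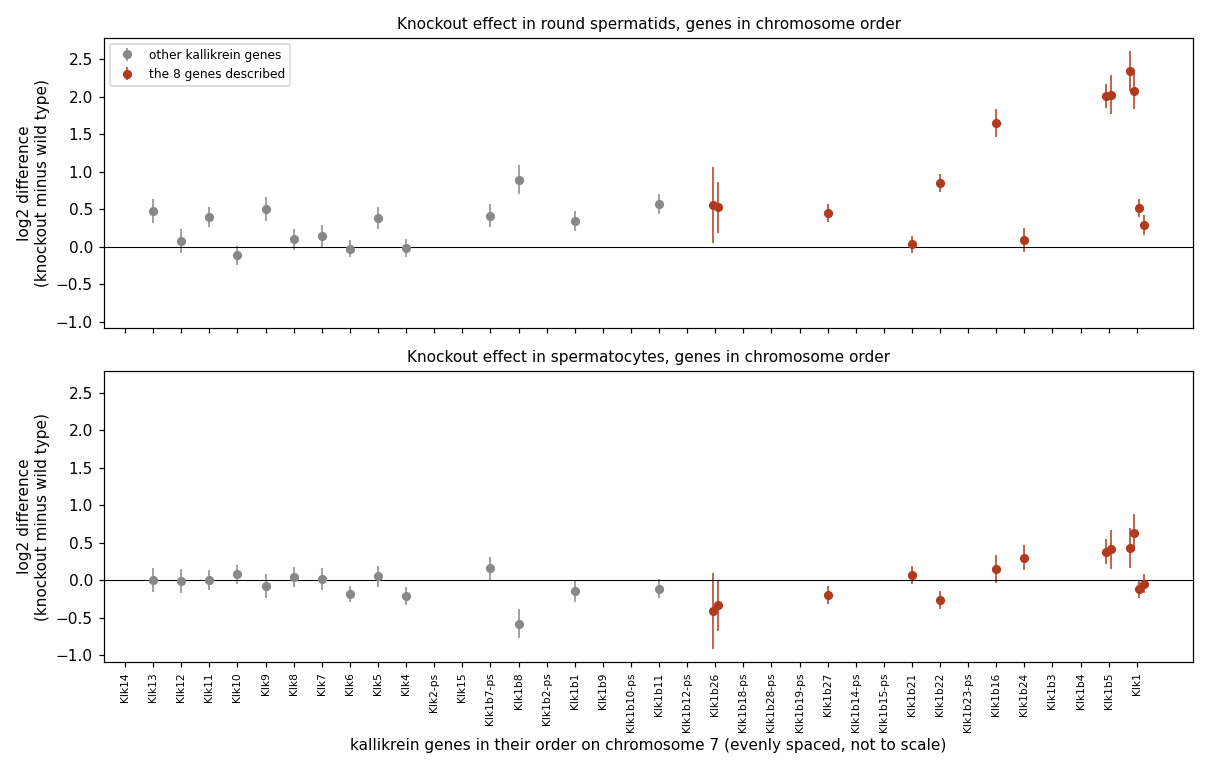
Log2 difference between knockout and wild type (vertical axis; points are probe sets, bars ± 1 standard error from limma) in spermatids (upper) and spermatocytes (lower) for the 37 kallikrein genes, ordered by the end of each gene on chromosome 7 and evenly spaced; Klk1b9, which shares the probe set shown at Klk1b22, has no point. In spermatids the points at the Klk1 end reach 2.34 with Klk1b24 at 0.09 among them, and in spermatocytes no point of the 8 genes exceeds 0.64.

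Other genes of the cluster share sequence with the 8 and are described in the same way, with no test. Of the other Klk1 subfamily genes, 4 had a probe set of their own besides Klk1b9, which shares that of Klk1b22. On each of the 4 both knockout spermatid arrays lay above both wild type arrays, as they did on 28.1% of all probe sets. Klk1b8 read 1287 and 1441 in knockout and 723 and 744 in wild type spermatids, a log2 difference of 0.89, and the pseudogene Klk1b7-ps read 590 and 754 against 478 and 524, a log2 difference of 0.41. Klk1b11 and Klk1b1 had log2 differences of 0.57 and 0.34, with group means of 36.4 and 20.8 in knockout spermatids. The 10 probe sets of Klk4 to Klk13, the older kallikrein genes of the cluster, ran from -0.11 for Klk10 to 0.50 for Klk9, and none had a group mean of 100.

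In spermatocytes, a contrast that did not choose the genes, no kallikrein probe set differed between knockout and wild type by limma's test. Of the 13 probe sets, 0 passed an adjusted p of 0.05, where 1.18% of all probe sets were higher and 0.413% lower, and 2 had an unadjusted p under 0.05, where 11% of all did. Adjusted p-values from limma ran from 0.358 to 0.958. Both knockout arrays lay above both wild type arrays on 5 of the 13 probe sets and below on 3, against 19.7% and 21.7% of all probe sets. The median log2 difference was 0.07, against -0.01 over all probe sets.

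The 2 probe sets with an unadjusted p under 0.05 belong to Klk1 and Klk1b5. On the Klk1 probe set 1448107_x_at the signals were 38.1 and 19.2 in knockout and 17.5 and 17.3 in wild type spermatocytes. All 4 are low, and replicate 1 of the knockout stands apart. The log2 difference was 0.64 (95% interval 0.08 to 1.19, adjusted p = 0.358 from limma), and without replicate 2 of the knockout spermatocytes it was 1.13 (adjusted p = 0.0134 from limma). On the Klk1b5 probe set 1419010_x_at the signals were 34.3 and 25.0 against 23.6 and 21.3, a log2 difference of 0.38 (95% interval 0.03 to 0.74, adjusted p = 0.403 from limma). The other probe sets of these genes with large spermatid differences, 1415837_at and 1449313_at, had log2 differences of 0.43 (95% interval -0.17 to 1.03) and 0.42 (95% interval -0.16 to 1.00), and Klk1b16 had 0.15 (95% interval -0.28 to 0.58). Beside these values stand the round spermatid markers, which were higher on the knockout spermatocyte arrays, 4 of 8 by limma's test (Prm1, Prm2, Tnp1 and Tnp2, which package sperm chromatin), and their part in the kallikrein values was not tested. The largest signal of these 5 probe sets in spermatocytes was 47.7, under the level of 100.

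Klk1b22 with Klk1b9 went the other way, with 112 and 99.8 in knockout and 135 and 119 in wild type spermatocytes, a log2 difference of -0.26 (95% interval -0.53 to 0.01, adjusted p = 0.470 from limma). Klk1b27 had -0.20 (95% interval -0.46 to 0.06), Klk1b24 0.30 (95% interval -0.06 to 0.66) and Klk1b21 0.07 (95% interval -0.19 to 0.33). The intervals of Klk1b26 were the widest, -1.53 to 0.72 and -1.10 to 0.43, where the wild type spermatocyte arrays read 87.9 and 41.5 on 1419090_x_at, and the replicates of a group were far apart in spermatids too.

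Most of the 13 probe sets were higher in wild type spermatids than in wild type spermatocytes. Both spermatid arrays lay above both spermatocyte arrays on 11, below on 1 (Klk1b24) and overlapped on 1 (1460050_x_at of Klk1), where 44.5% of all probe sets were above. The wild type spermatid arrays also enter the contrast that chose the genes, so this too is a description. The median log2 difference between the stages was 1.14, against 0.10 over all probe sets. Klk1 went from 17.9 ± 1.52 and 17.4 ± 0.18 in wild type spermatocytes to the spermatid means of 77.9 and 88.7 above, log2 differences of 2.05 and 2.35. Klk1b5 differed by 1.41 and 1.27, Klk1b26 by 1.29 on 1419090_x_at, Klk1b22 with Klk1b9 by 1.17, Klk1b16 by 1.14 and Klk1b21 by 0.73. In all, 8 of the 13 probe sets reached a mean signal of 100 in a group, where 43.1% of all did. Of the 8, 5 reached it in knockout spermatids alone, a group that enters the contrast that chose the genes. The count is therefore a description and cannot be compared with that share. The probe sets nearest that level were Klk1b21 with a highest group mean of 103 and Klk1b16 with 79.4.

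Other genes were ranked by Pearson's r over the 8 arrays with the mean log2 value of the 8 kallikrein probe sets that reached a signal of 100 in a group. Of these, 5 reached it in knockout spermatids alone, so this mean largely carries the contrast that chose the genes, and the 8 probe sets themselves had an r of 0.61 to 0.99 with it. The arrays fall into 4 groups, so such an r mostly follows the group means, and 681 of 17234 named probe sets had an r above 0.95. The 10 genes with the highest r, from 0.997 to 0.991, were Suds3, Mlkl, Polr2e, Timp4, Odf3b, Fbxl15, Gm14137, Tbx1, Lum and Hoxc9. Among them Lum, which encodes the matrix proteoglycan lumican, averaged 198 and 50.6 in knockout and wild type spermatids and 19.8 and 18.4 in the spermatocytes. Odf3b, named after an outer dense fibre protein of the sperm tail, had 688 and 185 in knockout and wild type spermatids, and Mlkl, the executor of necroptosis, had 188 and 65.6. These genes were picked for their likeness, so the values are a description.

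Leydig cells were compared through markers, because mouse kallikreins have been described in them. Of 15 listed Leydig cell markers 10 were measured, and the other 5 have no probe set of their own. In spermatids 0 of the 10 measured markers were called by limma, where 4.83% of all probe sets were higher and 9.63% lower. At an unadjusted p under 0.05 were 3 of the 10 markers, a count for which no share over all probe sets is given. Their median log2 difference in spermatids was 0.24, against 0.02 over all probe sets, and on 7 of the 10 both knockout arrays lay above both wild type arrays, against 28.1% of all. In spermatocytes 0 of the 10 were called, where 1.18% of all probe sets were higher and 0.413% lower. At an unadjusted p under 0.05 were 0 of these markers, against 11% of all probe sets. Their summed signal was 3637 to 3650 in knockout and 3366 to 3592 in wild type spermatids, and 4874 to 4946 and 4751 to 5107 in knockout and wild type spermatocytes. Fdx1, at 1880 to 2085 on every spermatid array, and Scarb1, at 980 to 1259, make up most of that sum, and neither is confined to Leydig cells. Cyp11a1, the side-chain cleavage enzyme that starts steroid synthesis, read 28.7 and 28.9 in knockout and 30.0 and 32.4 in wild type spermatids (log2 difference -0.12, adjusted p = 0.570 from limma). Hsd3b1, the next enzyme, read 50.2 and 36.5 against 38.0 and 33.5. Cyp17a1, which leads to androgens, read 69.9 and 76.4 against 63.0 and 49.6, while on the spermatocyte arrays it reached 99.1 to 158. Star, which carries cholesterol into mitochondria, read 115 and 122 against 91.7 and 98.3, a log2 difference of 0.32 (adjusted p = 0.118 from limma). Its dimmer probe sets went the other way, with log2 differences of -0.16 and -0.09. Insl3, a Leydig cell hormone, is read only by probe sets shared with Jak3, at 364 and 373 against 308 and 275 on the brighter of the pair. The dimmer of that pair had a log2 difference of -0.05. Hsd3b6 is read only by a shared probe set, at 31.1 and 31.9 against 31.0 and 23.4. The largest log2 difference of the 10 markers was 0.42, in Nr5a1 (adjusted p = 0.0524 from limma; 0.46 and adjusted p = 0.0388 on its other, dimmer probe set). Ptgds had the same size, with 144 and 150 against 122 and 99.6 (0.42, adjusted p = 0.135 from limma), and Scarb1 a log2 difference of 0.22. Cyp11a1, Cyp17a1 and Hsd3b1 stayed under a signal of 100 on all 4 spermatid arrays. The part of Leydig cell RNA in the kallikrein values was not tested.

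Of the markers of other cells, some were called in knockout spermatids, where 4.83% of all probe sets were higher and 9.63% lower. Of 8 macrophage markers, 2 were higher, C1qb with 172 and 217 against 83.5 and 72.0 (log2 difference 1.32, adjusted p = 0.0012 from limma) and Adgre1 with 215 and 217 against 137 and 147 (0.61, adjusted p = 0.0056 from limma), and the list summed to 871 to 872 against 607 to 627. Of 14 Sertoli cell markers, 3 were higher and 1 lower, namely Aard with 132 and 155 against 33.7 and 30.1 (log2 difference 2.17), Cldn11 (1.14), Gata1 (0.79) and the lower Tjp1 (-0.61), and the list summed to 1590 to 1618 against 1479 to 1514. Clu was not called on its brightest probe set (0.49, adjusted p = 0.181 from limma). On its other probe sets it was called higher (0.88, 1.17 and 0.82, adjusted p from 0.0021 to 0.0173 from limma). On the spermatocyte arrays the Sertoli list summed to 5364 to 6750 in the knockout and 5303 to 6724 in wild type. Of 7 peritubular myoid cell markers 0 were called by limma on their brightest probe sets, with 4 at an unadjusted p under 0.05. Their sums were 7589 to 7858 against 5067 to 5385, nearly all of it from Actg2. Actg2 was called higher in knockout spermatocytes (log2 difference 1.59). It averaged 4776 in wild type spermatids and 94.2 in wild type spermatocytes, so the sum mostly follows a gene that was high in spermatids. On dimmer probe sets Acta2 (0.70, adjusted p = 0.0066 from limma) and Myh11 (0.47, adjusted p = 0.0258 from limma) were called higher. Another of Acta2 and the dimmer probe set of Des were not called (0.17 and 0.19). Of 6 endothelial markers 2 were higher, Vwf (0.68) and Cdh5 (0.47), with sums of 360 to 386 against 331 to 342. Of 6 markers of the submandibular gland, the organ richest in kallikreins, 0 were higher and 1, Amy1, was lower (-0.79), with sums of 149 to 165 against 151 to 158. Of these 6 markers 0 reached a mean signal of 100 in any group, and Amy1 averaged 18.1 against 31.4, so these counts say little. Of 8 spermatocyte markers, 0 were higher and 2 lower in knockout spermatids, Mlh3 (-0.67) and Tdrd9 (-0.50), with 5 at an unadjusted p under 0.05, a median log2 difference of -0.34 and sums of 19060 to 20230 against 24990 to 25680. For the counts at an unadjusted p in spermatids, no share over all probe sets is given. The part of these cells in the kallikrein values was not tested.

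**Figure D3:**
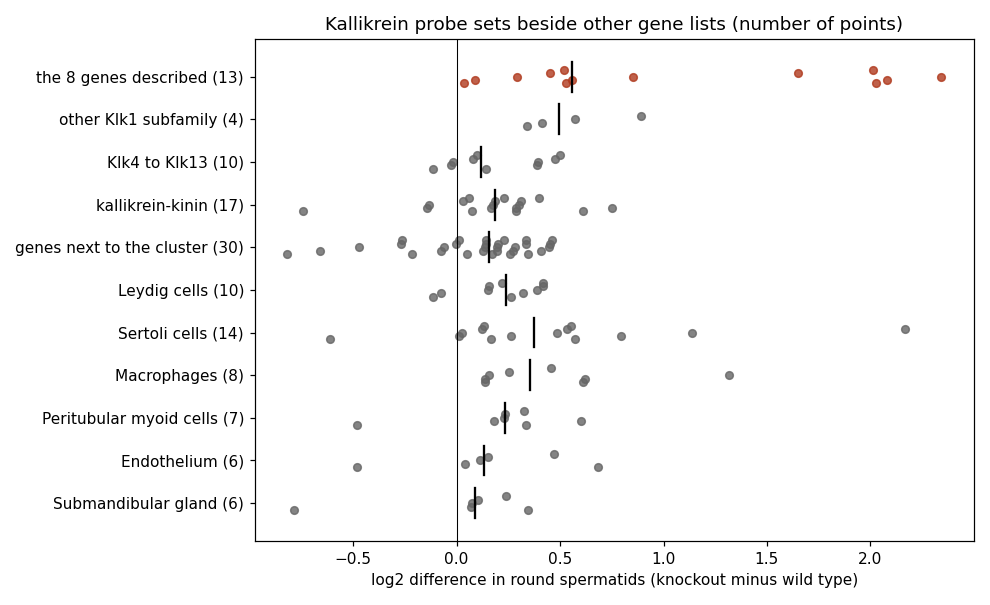
Log2 difference between knockout and wild type spermatids (horizontal axis) for the 13 kallikrein probe sets and for the gene lists, 1 point a gene (a probe set for the kallikreins), with the number of points in brackets and a black line at the median. The kallikrein median is 0.56 and 5 of its points lie above 1.6, while of the other lists 2 Sertoli cell genes and 1 macrophage gene exceed 1.

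Cross-hybridisation between kallikrein transcripts was likewise not tested, since the sequences of the array probes were not analysed here. By their names, 7 of the 13 probe sets carry the suffix _x_at, which marks sets with some probes that match other transcripts too, and 6 carry the plain suffix. Large differences occurred in both kinds: for Klk1 on 1415837_at (2.34) and 1448107_x_at (2.08), and for Klk1b5 on 1449313_at (2.03) and 1419010_x_at (2.01). Small ones did too, with 0.03 and 0.09 on the plain probe sets of Klk1b21 and Klk1b24 and 0.29 on 1460050_x_at of Klk1. The median log2 difference in spermatids was 1.05 over the 6 plain probe sets and 0.56 over the 7 with the suffix _x_at. How far the signals named Klk1, Klk1b5 and Klk1b16 come from 1 gene or from several similar transcripts of the cluster was not tested.

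Other genes of the kallikrein-kinin system were tested in the same fit. Of 26 genes listed for it (substrates, plasma kallikrein, receptors, peptidases and inhibitors), 17 were measured, and in spermatids 1 was higher, 1 lower and 15 were not called, with a median log2 difference of 0.19. Over all probe sets 4.83% were higher and 9.63% lower, and the list is near these shares. F12, coagulation factor XII, which activates plasma kallikrein, was higher in knockout spermatids, with 204 and 146 against 101 and 104 (log2 difference 0.75, adjusted p = 0.0102 from limma). Egf, the growth factor that some kallikreins bind, was lower, with 116 and 93.3 against 172 and 177 (log2 difference -0.74, adjusted p = 0.0098 from limma). Klkb1, plasma kallikrein, read 319 and 309 against 344 and 348 and missed the threshold (limma adjusted p = 0.505). Kng1, the kininogen from which kinins are cut, read 54.0 and 53.6 against 38.4 and 43.3, under 100 in every group. The kinin receptors Bdkrb1 and Bdkrb2 were also under that level, with log2 differences of 0.17 and 0.23. Ace, whose testis form is made by spermatids and which breaks down kinins, read 3756 and 2264 against 2240 and 2460, with overlapping arrays. Serpina5, an inhibitor of kallikreins, read 32.9 and 19.9 against 15.5 and 18.1 (log2 difference 0.61, adjusted p = 0.142 from limma). In spermatocytes limma called 0 of the 17 genes, where 1.18% of all probe sets were higher and 0.413% lower. At an unadjusted p under 0.05 were 4 of the 17, against 11% of all probe sets. The F12 and Egf calls depend on single arrays: neither was made without replicate 1 of the wild type spermatids, and the list had 1 call without replicate 1 of the knockout spermatids or replicate 2 of the wild type spermatids. With the arrays centred on the median of their expressed probe sets, 8 of the 17 were called in spermatids.

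The genes on either side of the cluster were compared too, 15 on each. Their calls are to be read against the same 4.83% and 9.63%, to which they are close. On the Klk1 side 0 were higher and 1 was lower in knockout spermatids, 1700008O03Rik, with 1208 and 1041 against 1824 and 2144 (log2 difference -0.82, adjusted p = 0.0129 from limma). On the Klk14 side 2 were higher, Siglece by 0.45 and Siglecg by 0.41 on the log2 scale, and 1 was lower, Etfb, with a log2 difference of -0.66. The median log2 differences were 0.14 and 0.17. The calls among these 30 genes numbered 4 in all, and 0 to 4 when single arrays were left out (0 without replicate 2 of the wild type spermatids), and 10 with that centring.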

How the data were processed

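Gene expression was measured on Affymetrix mouse arrays, 2 for each of 4 groups. The deposited values are log2 expression per probe set, which the authors background-corrected, normalized and summarized with RMA; the version is not given in the sources used here, and limma is named for their tests. RMA does not separate transcripts that bind the same probes, so signals of related kallikreins may mix. The values were used without further normalization. Signal is 2 to the power of the log2 value, and means ± SD are over 2 arrays. The number of arrays limits the precision.

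Groups were taken from the sample labels. Probe sets were named from the platform annotation, with older symbols updated to current RefSeq ones: 34981 had 1 gene, 896 several and 9160 none. One mean per group was estimated from all 8 arrays together in limma 3.58.1 (R 4.3.3), with 4 residual and 5.85 prior degrees of freedom and Benjamini-Hochberg adjustment over 45037 probe sets, leaving out 64 control probe sets. The procedure was tested on simulated data. A gene in a list was represented by the probe set of its own with the highest mean signal. Promoter windows were compared in pairs with Biopython 1.88 and plots drawn with matplotlib 3.10.9. The text names every kallikrein probe set, the other kallikrein genes together, the genes of the lists that were called in a comparison given or that define Leydig cells, with the rest of each list as counts, and the 10 genes of highest r. Members, lists and alternatives were chosen with earlier results of these data known. Alternatives were cyclic loess, an equal median of expressed probe sets, leaving out each array, a replicate block, each cell type alone, a signal of 100 on at least 4 arrays, a prior variance trend, and subsets of the kallikrein probe sets. The calls among genes beside the cluster were run under the same alternatives, added after seeing the data.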

Additional observations from a re-analysis of the deposited data

Results flagged for a closer look

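On 2 of the 13 kallikrein probe sets both knockout arrays lay above both wild type arrays in spermatids and below them in spermatocytes. This difference was not tested, and the spermatid contrast chose the genes. Over all probe sets 28.1% lay above in spermatids and 21.7% below in spermatocytes, and the share with both is not given. Klk1b22 with Klk1b9 (1425182_x_at) had a log2 difference of 0.85 in spermatids and of -0.26 in spermatocytes, and Klk1b27 (1421587_at) of 0.45 and -0.20. For 12 of the genes in the lists the knockout effect in spermatids differed from that in spermatocytes by limma's test of the difference. The share of all probe sets that differed in this way is not given, so the count is a description only. That of Egf was -1.31 on the log2 scale (adjusted p = 0.0135 from limma), with log2 differences of -0.74 in spermatids and 0.57 in spermatocytes. That of Fam71e1, which lies beside the Klk1 end of the cluster, was -1.18 (adjusted p = 0.0407 from limma), with 0.35 in spermatids, at signals of 11504 to 15529, and 1.52 in spermatocytes, at 1046 and 747 in the knockout against 366 and 258 in wild type. Round spermatid markers moved with it: the differences of Prm1, Prm2, Tnp1 and Tnp2 were -1.72, -1.90, -1.99 and -1.97 (adjusted p from 0.0140 to 0.0274 from limma), with log2 differences of 1.91 to 2.42 in spermatocytes. For the markers of somatic cells the differences were 2.41 for Aard, 0.91 for Gata1 and -0.74 for Tjp1 (Sertoli cells), 1.32 for C1qb and 0.86 for Adgre1 (macrophages) and 0.85 for Vwf (endothelium), with adjusted p-values from 0.0076 to 0.0392 from limma.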

How the results depend on the processing

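The log2 differences of the kallikrein probe sets in spermatids kept their sign under every setting they were fitted in for 9 of the 13 (the signal filter kept 2), and not for Klk1b24 under cyclic loess (-0.03), nor for Klk1b21, Klk1b24 and both Klk1b26 probe sets without replicate 1 of the knockout spermatids (-0.04, -0.14, -0.39 and -0.03), nor for Klk1b21 without replicate 2 of the wild type spermatids (-0.03). Their median of 0.56 was 0.76 with the arrays centred on their expressed probe sets (equal median), which moved the median of all probe sets from 0.02 to 0.22, and 1.05 over the plain probe sets, 1.43 over those with a signal of 100 (5 of these 8 reach it in knockout spermatids alone, so a larger median was built in) and 0.46 to 1.08 without single arrays (1.08 without replicate 2 of the knockout spermatids, 0.87 without replicate 2 of the wild type spermatids). In spermatocytes the median of 0.07 was 0.23 over either subset and 0.01 to 0.14 without single arrays. The count of kallikrein probe sets called there was 0, and 1 without replicate 2 of the knockout spermatocytes (range 0 to 1). Over all probe sets it was 717, 80 with each cell type fitted alone, and 119 to 999 without single arrays (119 and 374 without replicate 1 and 2 of the knockout spermatocytes). Calls in the kallikrein-kinin list numbered 2, 8 with the equal median, and 0 to 2 without single arrays. Calls beside the cluster numbered 4, 10 with the equal median, 2 with cyclic loess, with the signal filter or with each cell type alone, and 0 to 4 without single arrays. The cause was not tested. Over all probe sets, arrays with the same replicate number showed little sign of pairing (correlations of deviations from -0.13 to 0.14, 1 of 6 over 0.1). Some genes, among them Aard and Tnp2, did shift the same way by replicate number in both spermatocyte genotypes. Whether the numbers mark a shared isolation or batch was not tested. With the replicate block 686 probe sets were called in spermatocytes, and the kallikrein count stayed at 0.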
